A study of Homo sapiens with 24 samples.

Results

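The comparison set 8 libraries of SKBR3 cells treated with a biosimilar of trastuzumab directly against 8 libraries of SKBR3 cells treated with Herceptin, the original product. These were 16 of the 24 libraries of the series, and they were chosen by their labelled treatment alone. The remaining 8 libraries, of untreated cells, were not part of the comparison and served only to find genes that responded to both antibodies together. Of 60617 rows in the deposited table, 13338 had enough counts in these 16 libraries to be tested.

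SKBR3 is a human breast carcinoma line in which ERBB2, the gene of the receptor HER2, is amplified. Per the labels, all groups were seeded at 6500 cells per cm2, grown with 10% fetal bovine serum and refreshed on days 1 and 4, and RNA was taken on day 7. The biosimilar, named ApoTras in the labels, and Herceptin were given in phosphate-buffered saline, and the control cells were untreated. A dose of 4 µg/ml is written beside Herceptin, and the labels leave unclear whether it holds for ApoTras too. There was no group given the saline alone and none given an unrelated antibody. All libraries came from 1 cell line grown without immune cells, so that only effects of the antibodies on the tumour cells themselves could be measured.

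HER2 is a receptor tyrosine kinase without a known ligand of its own. It pairs with the related receptors EGFR and HER3, and the pairs drive growth through the PI3K-AKT and MAPK pathways. Trastuzumab binds the part of HER2 outside the cell and dampens this signalling, and in patients it also recruits immune cells through its Fc part. A biosimilar is an independently produced version of a licensed antibody, and comparability studies ask whether any difference from the original is small enough to be without consequence.

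The biosimilar libraries held fewer reads than the Herceptin libraries, with totals of 9070186 to 11880165 against 10747837 to 12260086 expected counts. The means were 10271100 and 11489200, and the exact two-sided permutation p over all regroupings of 8 against 8 was 0.00963 (adjusted over 6 library measures, 0.0555). Levels below are CPM, counts scaled to a common library size, which allows for this. The deposited expected counts split each read that fits several places between them. Where a gene's count was fractional for this reason in over 50% of the 16 libraries, the gene is called uncertain for shared reads. The label does not say what part of its reads was shared, which may be small. The epithelial markers of the line were abundant in both groups: KRT8 lay between 4940 and 5591 CPM with the biosimilar and between 5139 and 5637 CPM with Herceptin. Of 16 leukocyte markers, 14 averaged under 1 CPM and MS4A1, NKG7 and TYROBP had no count in any of the 16 libraries. The summed leukocyte marker level was 65.0 to 81.2 CPM with the biosimilar and 74.5 to 80.1 CPM with Herceptin. Fibroblast and endothelial markers were likewise under 1 CPM for 9 of 12 and 8 of 10 genes, with LUM at 0. The markers above 1 CPM on average were CD68, CSF1R, COL1A1, COL5A1, ACTA2, CDH5 and ESAM. CDH5 averaged 45.0 CPM with the biosimilar and 47.1 CPM with Herceptin, CSF1R 41.9 and 43.1 CPM, and CD68 29.8 and 32.0 CPM. The summed endothelial marker level was 58.8 to 67.4 CPM with the biosimilar and 57.3 to 68.7 CPM with Herceptin.

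One library stood apart from the rest. In biosimilar replicate 6, 867 of the 9282 genes of at least 10 CPM lay more than 1.2-fold from the mean of the other libraries of its group. The other 15 libraries had between 109 and 306 such genes. Where leaving this library out moved a call or a count given below by more than 1.5-fold, or shifted the median of a gene list by more than 0.02 on the log2 scale, both values are given. Counts of genes whose groups did not overlap were not redone over all genes without this library.

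No gene passed the test between the biosimilar and Herceptin. Of 13338 genes, 0 were called higher and 0 lower at an edgeR adjusted p under 0.05 (0% called), and the smallest adjusted p was 0.219. At an unadjusted p under 0.05 there were 333 genes higher with the biosimilar (2.5%) and 431 lower (3.23%), together 764 or 5.73% of those tested. Without biosimilar replicate 6 these were 669 higher (5.02%) and 743 lower (5.57%), together 1412 or 10.6%, while leaving out any other single library gave 643 to 852 genes. Most estimates were small, with 96.6% of genes under 1.2-fold. Only 47 genes had an estimate of at least 1.5-fold, and 39 of these were uncertain for shared reads. The groups of 8 failed to overlap for 2 genes higher with the biosimilar (0.015%) and for 2 genes lower with it (0.015%). Biosimilar replicate 6 lowers these counts. Without it SLMAP, PJA2 and PTPN12 would also lie wholly above Herceptin, and IVL wholly below. Other tools called a few genes on the same counts: DESeq2 called 14 and limma-voom called 9. Without biosimilar replicate 6 edgeR called 21, without biosimilar replicate 5 it called 11 and without Herceptin replicate 2 it called 8. With no filter on low counts it called 56 of 31990 rows. In each of these fits 8 of the calls were identical rows of the 5.8S ribosomal RNA gene, described below. With these rows included, most calls were lower with the biosimilar: 13 of 14 in DESeq2 and 8 of 9 in limma-voom. All 8 lower calls in limma-voom were these rows. In edgeR the lower calls were 19 of 21 without biosimilar replicate 6 and 48 of 56 with no filter. Ribosomal protein genes such as RPS12, RPS24, RPS25, RPL26 and RPL37 were among those 48.

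**Figure D1:**
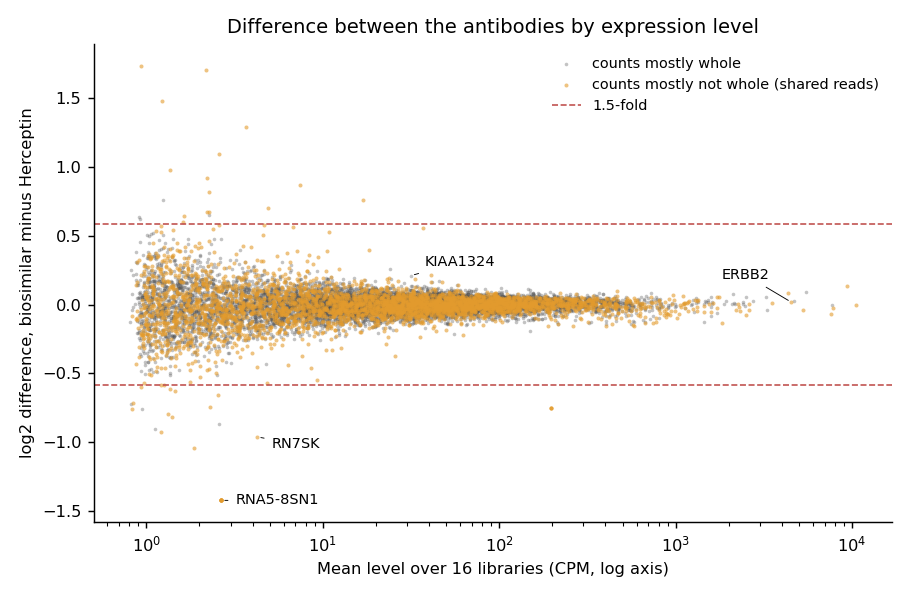
Each of 13338 genes is placed by its mean level over the 16 libraries (CPM, log axis) and by its log2 difference, biosimilar minus Herceptin; orange marks genes uncertain for shared reads and dashed lines mark 1.5-fold. Of 9282 genes of at least 10 CPM, 4 lie beyond 1.5-fold.

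A missed threshold does not show likeness, so the size of difference that the data could bound was given for each gene. A gene counted as bounded when its 90% interval lay within 1.5-fold either way, by a pair of one-sided tests adjusted over all genes. This held for 12754 of 13338 genes (95.6%). With a margin of 1.2-fold it held for 10087 genes (75.6%), and with 2-fold for 13235 (99.2%). The replicates differed from each other by a biological coefficient of variation of 4.61% over both groups. That spread was 5.48% among the biosimilar libraries alone and 3.64% among the Herceptin libraries alone.

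How tight the bound was depended on the level of a gene. Under 1 CPM, 50% of 164 genes were bounded within 1.5-fold, between 1 and 3 CPM it was 76.7% of 1822, and between 3 and 10 CPM it was 97% of 2070. From 10 CPM upwards at least 99.7% were bounded. The median bound was 1.49-fold under 1 CPM, 1.19-fold between 3 and 10 CPM, and 1.06-fold from 100 CPM upwards. Of the 584 genes that were not bounded, 507 lay under 3 CPM and 340 (58.2%) were uncertain for shared reads, against 29.5% of all tested genes. Among the 6725 genes of at least 10 CPM whose counts were mostly whole, 6724 were bounded within 1.5-fold and 6634 (98.6%) within 1.2-fold.

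Transcripts of ERBB2, EGFR and ERBB3 had bounds of 1.04-fold to 1.06-fold, near the median of 1.06-fold for genes from 100 CPM upwards. ERBB2, which encodes the target of both antibodies, ran from 4339 through a median of 4559 to 4795 CPM with the biosimilar and from 4396 through 4486 to 4647 CPM with Herceptin. All Herceptin values lay inside the biosimilar range. Its log2 difference was 0.017 (SE 0.025, edgeR adjusted p = 0.966), which bounds any difference at 1.04-fold. ERBB2 lies on chromosome 17 from 39687914 to 39730426 (GRCh38), and its counts were not whole in any library, so that it is uncertain for shared reads.

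EGFR, the receptor for epidermal growth factor, ran from 175.8 through 225.0 to 245.5 CPM with the biosimilar and from 210.6 through 222.6 to 231.5 CPM with Herceptin. Its lowest value was biosimilar replicate 6, and the medians lay within 3 CPM of each other. The log2 difference was -0.0026 (SE 0.047), bounded at 1.06-fold, with counts not whole in 68.8% of libraries. ERBB3, which encodes HER3, the usual partner of HER2, ran from 191.0 through 216.0 to 227.3 CPM with the biosimilar and from 211.9 through 213.8 to 223.5 CPM with Herceptin. Biosimilar replicate 6 was again the lowest, and the other 7 lay between 210.9 and 227.3 CPM. The log2 difference was -0.0093 (SE 0.029), bounded at 1.04-fold. The ligand genes that could be tested were also bounded: EGF differed by 0.072 (SE 0.050), BTC, which encodes betacellulin, by 0.075 (SE 0.083), and the neuregulin gene NRG2 by -0.17 (SE 0.13) on the log2 scale. All 7 tested genes of 13 listed HER receptors and ligands were bounded within 1.5-fold. Their median log2 difference was -0.0026, against 5.88e-05 over all tested genes, and 0.026 without biosimilar replicate 6.

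**Figure D2:**
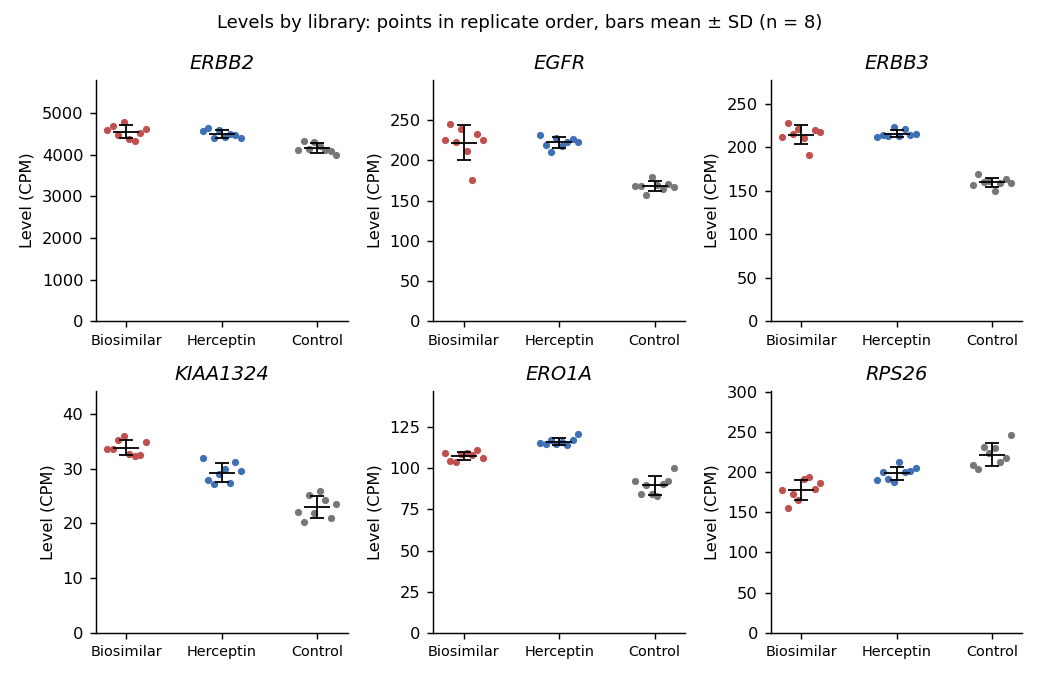
Levels (CPM) of 6 genes in each library, with the biosimilar on the left, Herceptin in the middle and untreated control on the right; points follow the replicate number and bars give mean ± SD (n = 8). The antibody groups overlap for ERBB2, EGFR, ERBB3 and RPS26 and do not overlap for KIAA1324 and ERO1A.

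Genes whose products act on HER2 itself were also bounded. The list of HER2 turnover and signal dampening held ubiquitin ligases, phosphatases, chaperones and feedback inhibitors, and all 14 of its genes were bounded within 1.5-fold, with a median log2 difference of 0.014. PTPN12, a phosphatase that acts on HER family receptors, was at 153.4 to 168.5 CPM with the biosimilar (median 159.8) and 150.0 to 156.5 CPM with Herceptin (median 151.0). The biosimilar median lay above the highest Herceptin value, and the groups overlapped through biosimilar replicate 6 alone. The log2 difference of 0.080 (SE 0.026) missed the threshold (edgeR adjusted p = 0.655). HSP90AA1, the chaperone gene whose product stabilises HER2, was at a median of 2429 CPM with the biosimilar and 2533 CPM with Herceptin (log2 difference -0.076, SE 0.032), and is uncertain for shared reads. The neighbours of ERBB2 in its amplicon are genes that are often copied along with it. All 17 tested genes of this list were bounded, with a median of 0.0077, and the lowest unadjusted p among them was that of GSDMB, which encodes a pore-forming gasdermin, at a median of 455.1 CPM with the biosimilar and 471.6 CPM with Herceptin.

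Transcripts of the neonatal Fc receptor and of the Fc gamma receptors were close to absent from these cells. FCGRT, which encodes the neonatal Fc receptor that recycles antibodies, did not exceed 0.196 CPM in any biosimilar library or 0.0936 CPM in any Herceptin library, and was too low to test. The Fc gamma receptor genes FCGR1A, FCGR2A, FCGR2B, FCGR3A and FCGR3B stayed at or under 0.352 CPM throughout. TRIM21, which encodes a cytosolic receptor for the Fc part, was present at 9.39 to 16.5 CPM with the biosimilar (median 12.5) and 11.6 to 13.9 CPM with Herceptin (median 13.0), and the groups overlapped. The complement regulators CD46, CD55 and CD59, which shield a cell from antibody-directed complement, were abundant. CD46 had a median of 528.2 CPM with the biosimilar and 524.9 CPM with Herceptin, CD55 of 97.3 CPM with the biosimilar and 99.4 CPM with Herceptin, and CD59, uncertain for shared reads, of 471.0 CPM with the biosimilar and 456.1 CPM with Herceptin. The 4 tested genes of this list were bounded, and their log2 differences lay between -0.035 and 0.032.

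The gene with the smallest p in the higher direction was KIAA1324 (ENSG00000116299), which encodes a membrane protein of the endosomal and lysosomal compartment known as an estrogen-induced gene. It lies on chromosome 1 from 109113679 to 109206781. Its level was 32.4 to 36.1 CPM with the biosimilar (median 33.6) and 27.2 to 31.9 CPM with Herceptin (median 29.3). All 8 biosimilar libraries lay above all 8 Herceptin libraries, and both groups lay above the control median of 22.8 CPM. The log2 difference was 0.21 (SE 0.044, edgeR adjusted p = 0.219), bounded at 1.22-fold. This gene was called by DESeq2 (adjusted p = 0.0287) and by limma-voom (adjusted p = 0.0447). In edgeR it was called with no filter on low counts (adjusted p = 0.0163), without biosimilar replicate 5 (adjusted p = 0.0487) and without biosimilar replicate 6 (adjusted p = 0.0289). Over all alternatives its adjusted p ran from 0.0163 to 0.530.

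The next genes in that direction overlapped between the groups. SLMAP, which encodes a membrane protein that takes part in Hippo pathway control, was at 99.9 to 111.2 CPM with the biosimilar (median 107.1) and 91.5 to 103.3 CPM with Herceptin (median 98.7). Only biosimilar replicate 6 reached the Herceptin range. The SLMAP log2 difference of 0.12 (SE 0.030, edgeR adjusted p = 0.269) passed only without that library (0.13, adjusted p = 0.0446). KITLG, which encodes the ligand of the receptor KIT, was at 145.2 to 162.7 CPM with the biosimilar (median 150.2) and 134.3 to 149.2 CPM with Herceptin (median 139.3). Only Herceptin replicate 6 reached the biosimilar range, and the control median was 183.8 CPM (log2 difference 0.11, SE 0.029, edgeR adjusted p = 0.327). PJA2, a ubiquitin ligase gene, had a log2 difference of 0.11 (SE 0.032), and only biosimilar replicate 6 reached its Herceptin range. ZMAT3, a p53 target that encodes an RNA-binding protein, differed by 0.17 (SE 0.047), and OSGIN1, an oxidative stress response gene, by 0.31 (SE 0.089). PRKG1, the gene of a cGMP-dependent kinase, had the largest estimate of these, 0.76 (SE 0.22), at a level of only 1.15 to 2.19 CPM with the biosimilar and 0.492 to 1.47 CPM with Herceptin. It was not bounded within 1.5-fold.

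In the lower direction the smallest p belonged to 5.8S ribosomal RNA, a structural RNA of the large ribosomal subunit that carries no polyA tail. The deposited table held 8 rows with identical counts for it, of which RNA5-8SN1, RNA5-8SN2, RNA5-8SN3 and 5_8S_rRNA lie on chromosome 21. They were counted in full here, so that 1 measurement appears 8 times among the tested genes. The 4 chromosome 21 copies have 1 and the same sequence of 153 bases in the GENCODE v29 transcripts, on the plus strand of GRCh38, at chr21:8439823-8439975 for RNA5-8SN1. It is shown because reads cannot be assigned to a single copy.
RNA5-8SN1: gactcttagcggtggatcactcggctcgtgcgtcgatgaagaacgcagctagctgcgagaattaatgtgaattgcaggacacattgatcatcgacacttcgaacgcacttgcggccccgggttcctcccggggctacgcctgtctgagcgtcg
Each row was at 0.763 to 2.72 CPM with the biosimilar (median 1.06) and at 2.48 to 7.33 CPM with Herceptin (median 3.36). Biosimilar replicates 5 and 6, at 2.72 and 2.64 CPM, reached the lowest Herceptin value, and the other 6 biosimilar libraries lay at or under 1.47 CPM. The log2 difference was -1.42 (SE 0.30, edgeR adjusted p = 0.219), and -1.63 (adjusted p = 0.0289) without biosimilar replicate 6.

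Other structural RNAs without a polyA tail were looked at after this value was seen. RN7SK, a nuclear RNA that restrains transcription elongation, was at 1.49 to 4.43 CPM with the biosimilar and 3.85 to 9.20 CPM with Herceptin (log2 difference -0.96, SE 0.23, edgeR adjusted p = 0.361). RPPH1, the RNA of ribonuclease P, was at 0.493 to 1.02 CPM with the biosimilar and 0.749 to 2.41 CPM with Herceptin (log2 difference -0.91, SE 0.24, adjusted p = 0.327). The signal recognition particle RNAs went the other way in estimate: RN7SL1 differed by 0.19 (SE 0.28) and RN7SL2 by 0.21 (SE 0.27). RN7SK and both RN7SL genes are uncertain for shared reads. RN7SK was called by DESeq2 (adjusted p = 0.00354) and in edgeR with no filter on low counts (adjusted p = 1.08e-05). Lower values of 5.8S RNA, RN7SK and RPPH1 with the biosimilar thus stood beside overlapping values of both RN7SL genes. Such RNAs pass polyA selection only in part, and whether library preparation had a part in their levels was not tested.

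ERO1A, which encodes an oxidase that forms disulfide bonds in the endoplasmic reticulum and responds to hypoxia, was the one protein-coding gene with a known symbol and whole counts among the leading lower genes whose groups did not overlap. It lies on chromosome 14. Its level was 103.9 to 110.9 CPM with the biosimilar (median 108.3) and 114.0 to 120.5 CPM with Herceptin (median 115.4), while the control median was 90.1 CPM. The log2 difference was -0.11 (SE 0.027, edgeR adjusted p = 0.269), bounded at 1.11-fold. DESeq2 called it (adjusted p = 0.0463), and over all alternatives its adjusted p ran from 0.0463 to 0.831.

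ATP5ME, a small subunit of the mitochondrial ATP synthase, was at 37.0 to 47.1 CPM with the biosimilar (median 40.1) and 42.0 to 51.2 CPM with Herceptin (median 46.4). Its log2 difference was -0.19 (SE 0.046, edgeR adjusted p = 0.224). RPS26, a protein of the small ribosomal subunit, was at 155.8 to 193.9 CPM with the biosimilar (median 178.0) and 187.4 to 212.2 CPM with Herceptin (median 199.7), a log2 difference of -0.16 (SE 0.037, adjusted p = 0.224). Both are uncertain for shared reads, and both passed without biosimilar replicate 6 (ATP5ME adjusted p = 0.0483, RPS26 adjusted p = 0.0289) and with no filter on low counts (ATP5ME adjusted p = 0.00256, RPS26 adjusted p = 3.86e-04). ATP5ME also passed without biosimilar replicate 5 (adjusted p = 0.0296). With an offset that follows gene length, described below, its log2 difference was -0.078 (adjusted p = 0.866). That offset was fitted to these same libraries and takes out differences that follow length, so this value tests no cause.

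CHTF8, which encodes a protein of the clamp loader for sister chromatid cohesion, had 2 rows whose differences were opposite in sign. None of their counts was whole. The row of 62.0 CPM on average had a log2 difference of -0.22 (SE 0.052, edgeR adjusted p = 0.224), and the row of 16.8 CPM had one of 0.76 (SE 0.20, adjusted p = 0.514). The first of these rows was called by DESeq2 (adjusted p = 0.0463) and with no filter on low counts (adjusted p = 6.33e-06). Summed, the rows were at 78.4 ± 1.98 CPM with the biosimilar and 79.3 ± 2.54 CPM with Herceptin (SD, n = 8 each), a log2 ratio of -0.017.

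The genes of at least 10 CPM that the data could not bound within 1.5-fold numbered 15, and 14 of these were uncertain for shared reads. RGPD6, a RanBP2-like gene of a family of near-identical copies, was at 6.70 to 15.5 CPM with the biosimilar and 0.268 to 18.7 CPM with Herceptin (bound 2.23-fold). MATR3, which encodes a nuclear matrix protein, was at 20.5 to 61.5 CPM with the biosimilar and 19.7 to 55.5 CPM with Herceptin. MTCO1P12, a nuclear copy of the mitochondrial COX1 gene, was at a median of 39.4 CPM with the biosimilar and 29.6 CPM with Herceptin (log2 difference 0.56, SE 0.18, edgeR adjusted p = 0.759). The melanoma antigen gene MAGEA2B, the histone gene HIST2H4A and the RN7SL genes were also in this group. The exception was FAM220A, with counts not whole in 43.8% of libraries. It was at 7.95 CPM in biosimilar replicate 3 and at 26.6 to 31.7 CPM in the other 7.

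Whether the antibodies differed on the genes they act on was examined with the mean of both antibodies against untreated cells. That contrast weights both antibodies alike, so that it does not use the difference between them. In the fit of all 24 libraries, 7078 of 13536 genes (52.3%) differed from control at an edgeR adjusted p under 0.05. At 1.5-fold or more, 404 rose (2.98%) and 140 fell (1.03%), and of these 403 and 120 could be tested between the antibodies. None was called between the antibodies in the main edgeR fit or in limma-voom. RN7SK was called in the alternatives named above and in the replicate block fit described below. At an unadjusted p under 0.05, 11 of the 403 risen genes were higher with the biosimilar and 18 lower, and 0 of the 120 fallen genes were higher and 10 lower, against 2.5% higher and 3.23% lower over all genes. The 10 include 3 rows with identical counts, so that they hold 8 different measurements. Without biosimilar replicate 6 the counts were 9 and 23 for risen genes and 1 and 11 for fallen genes. In that fit 5.02% of all genes were higher and 5.57% lower. Of the risen genes 355 (88.1%) were bounded within 1.5-fold, and of the fallen genes 94 (78.3%), against 95.6% of all genes. Low levels were common among them: 43 of the 48 unbounded risen genes and 16 of the 26 unbounded fallen genes were under 3 CPM. Of the 153 responsive genes of at least 10 CPM, 148 were bounded. The median log2 difference was -0.023 for risen and -0.047 for fallen genes, against 5.88e-05 over all genes.

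Library by library, the 124 risen genes of at least 10 CPM had a median log2 ratio to the control mean of 0.716 to 0.783 with the biosimilar and 0.728 to 0.771 with Herceptin. For the 29 fallen genes of that level it was -0.756 to -0.650 with the biosimilar and -0.696 to -0.596 with Herceptin. The risen genes thus overlapped fully between the antibodies, while biosimilar replicates 2, 4, 6 and 7 lay below all Herceptin libraries for the fallen genes. These genes were chosen for their response to the antibodies, so the distance from control is a description.

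**Figure D3:**
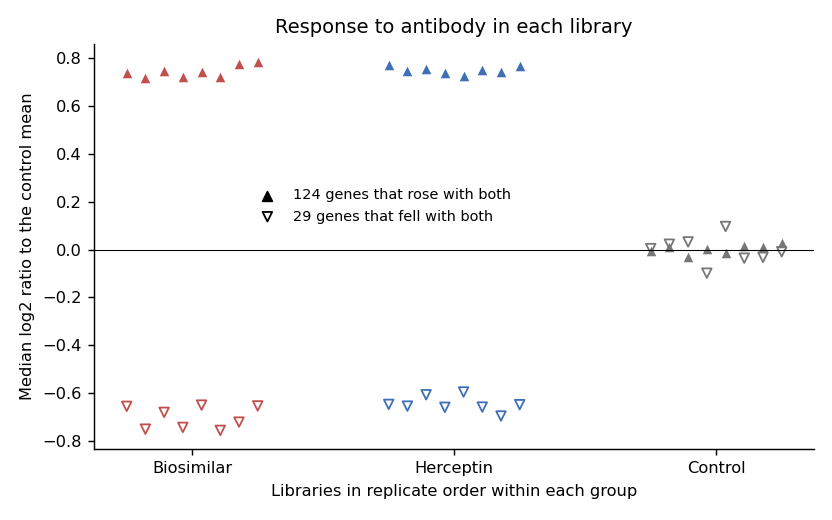
Median log2 ratio to the control mean in each library for 124 genes that rose (filled) and 29 genes that fell (open) with both antibodies, all of at least 10 CPM. Biosimilar libraries, on the left, span 0.716 to 0.783 and -0.756 to -0.650, and Herceptin libraries 0.728 to 0.771 and -0.696 to -0.596.

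Among the largest rises were genes of epidermal differentiation. SPINK5, a protease inhibitor of the epidermis, was at 2.98 to 7.46 CPM with the biosimilar (median 5.53) and 3.91 to 6.51 CPM with Herceptin (median 5.81), against a control median of 0.987 CPM. Between the antibodies it differed by -0.093 on the log2 scale (SE 0.14), bounded at 1.26-fold. KRT27, a hair follicle keratin, differed by -0.023 (SE 0.11, bound 1.15-fold), and KRTAP3-3, a keratin-associated protein of hair, by -0.031 (SE 0.24, bound 1.35-fold). SPRR1B and the late cornified envelope gene LCE3D build the outer skin barrier; they differed by -0.31 (SE 0.16) and -0.23 (SE 0.24), and PRR9 of the same gene cluster by -0.32 (SE 0.16). LCE3D and PRR9 were not bounded, at 1.57-fold and 1.51-fold. SPRR1B was bounded at 1.49-fold, just inside the margin, and lost the bound in 13 alternatives (at most 1.58-fold). DLL4, a Notch ligand, was at 3.78 to 8.77 CPM with the biosimilar (median 6.32) and 6.44 to 8.33 CPM with Herceptin (median 6.94), a log2 difference of -0.20 (SE 0.12).

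The 10 genes with the largest rises also took in TCL1B, which encodes a co-activator of AKT, at -0.33 (SE 0.22), and HIST2H2AA3 and BMS1P4-AGAP5. All of these are uncertain for shared reads. HIST2H2AA3, a histone H2A gene with an identical copy, was at 0 to 7.41 CPM with the biosimilar and 0 to 2.65 CPM with Herceptin and was bounded only at 10.2-fold.

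Of the largest falls, EPHB6, an Eph family receptor, was at 8.46 to 12.4 CPM with the biosimilar (median 11.2) and 9.52 to 11.9 CPM with Herceptin (median 10.3), against a control median of 22.9 CPM. The antibodies differed on it by 0.046 (SE 0.075, bound 1.13-fold). STAC2, an adaptor of calcium channels, differed by 0.0087 (SE 0.073, bound 1.10-fold), GABRQ, a GABA receptor subunit, by 0.036 (SE 0.11) and KCTD12, an auxiliary subunit of GABA-B receptors, by 0.10 (SE 0.15). GPRIN3 and INSYN1 were bounded at 1.47-fold and 1.31-fold, and GPRIN3 lost the bound in 9 alternatives (at most 1.59-fold). KANK4, of a family of adaptors between focal adhesions and microtubules, was at 0.333 to 1.46 CPM with the biosimilar and 0.550 to 1.46 CPM with Herceptin and was not bounded (1.82-fold). KREMEN2, a co-receptor in Wnt signalling, and the ribosomal pseudogenes RPL39P3 and RPS2P46 were uncertain for shared reads.

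Some secreted factors that rose with both antibodies were not bounded within 1.5-fold. LIF, which encodes leukemia inhibitory factor, averaged 2.95 CPM and differed by -0.35 (SE 0.14, bound 1.51-fold), and INHBA, the activin A subunit gene, averaged 2.74 CPM and differed by -0.30 (SE 0.18, bound 1.51-fold). These lay just outside the margin.

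Pathway by pathway, 34 gene lists held 634 different genes that could be tested, and the main edgeR fit called 0 of them. DESeq2 called 1, ERO1A, and limma-voom called 0. Without biosimilar replicate 5 edgeR called 1, ZMAT3. With no filter on low counts it called CENPE, COX1, COX5B, COX7C, NUPR1 and ZMAT3. The largest median of a list was 0.13 in size on the log2 scale, and 0.14 without biosimilar replicate 6. Of FOXO targets and PI3K feedback genes, which are released when AKT signalling is dampened, 25 of 25 were bounded within 1.5-fold, with a median log2 difference of -0.0027 between the antibodies. FOXO3, a transcription factor of this pathway, was at a median of 61.8 CPM with the biosimilar and 56.4 CPM with Herceptin (log2 difference 0.10, SE 0.037) and is uncertain for shared reads. Of PI3K, AKT and mTOR genes 24 of 24 were bounded. PIK3R1, the regulatory subunit of PI3K, was at a median of 20.2 CPM with the biosimilar and 18.6 CPM with Herceptin (log2 difference 0.17, SE 0.057, edgeR adjusted p = 0.697). Of 21 ERK output genes 20 were bounded, with a median of -0.023. The exception was FOSB. ETV1, a transcription factor downstream of ERK, differed by 0.31 (SE 0.13).

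Genes of the cell division cycle had medians of -0.30 (G2/M and mitosis) and -0.27 (G1/S and DNA replication) for both antibodies minus control. Between the antibodies, all 42 genes of G2/M and mitosis and all 45 of G1/S and DNA replication were bounded within 1.5-fold. The median between the antibodies was -0.0065 for G2/M and -0.012 for G1/S. At an unadjusted p under 0.05, 2 and 1 genes were lower and 0 and 0 higher, against 3.23% and 2.5% of all genes. These were 3 and 1 lower and 2 and 0 higher without biosimilar replicate 6, against 5.57% and 5.02% of all genes. CENPE, a mitotic kinesin, was at 112.2 to 135.6 CPM with the biosimilar (median 117.7) and 119.5 to 151.7 CPM with Herceptin (median 128.3), against 178.2 CPM in the median control library. The groups overlapped, and the log2 difference was -0.13 (SE 0.042, edgeR adjusted p = 0.714). CDKN1A, the cell cycle inhibitor p21, was at 14.5 to 17.6 CPM with the biosimilar and 16.7 to 18.6 CPM with Herceptin (log2 difference -0.13, SE 0.052).

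**Figure D4:**
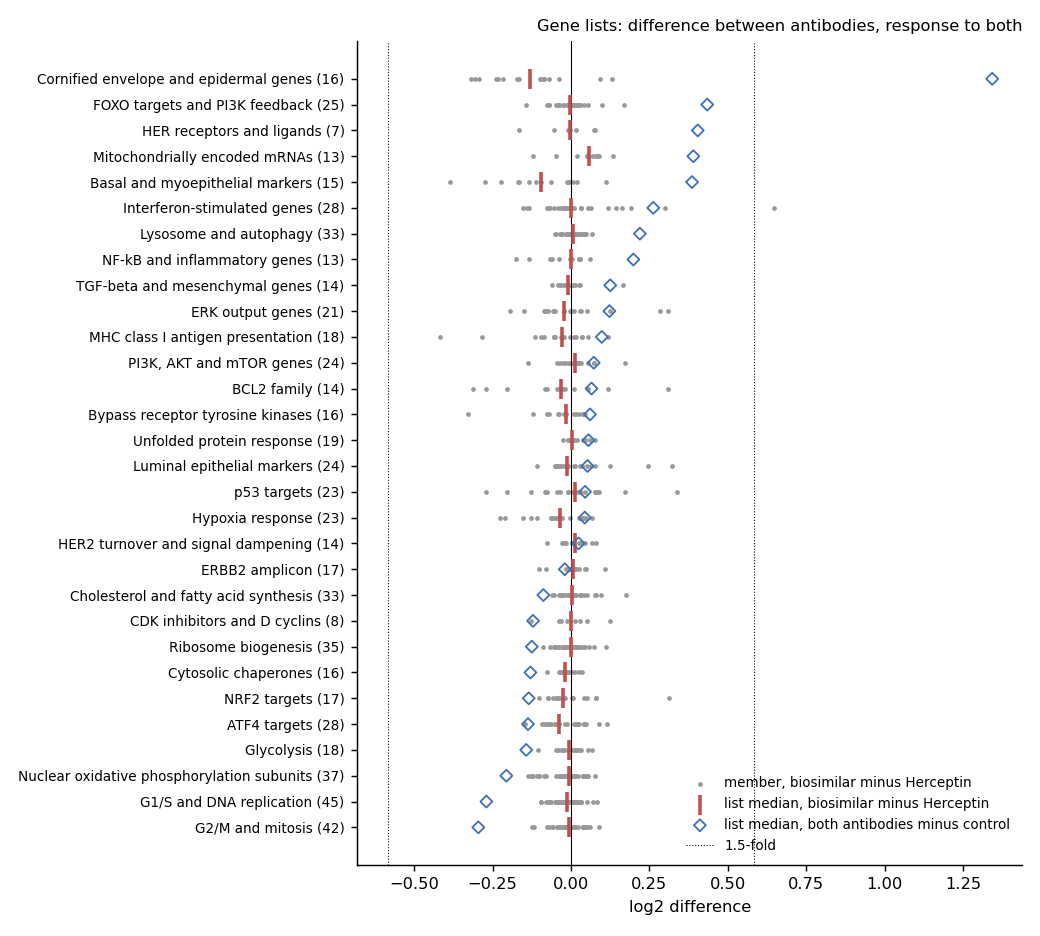
For each list with at least 5 tested genes (number in brackets), grey points give the log2 difference of its members, biosimilar minus Herceptin, red bars their median and blue diamonds the list's median of both antibodies minus control. Red bars lie between -0.13 and 0.059, while blue diamonds reach 1.34 for cornified envelope genes.

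Cornified envelope and epidermal genes had the lowest median of the 34 lists, -0.13, with 0 of 16 tested genes higher and 3 lower at an unadjusted p under 0.05, against 2.5% and 3.23% of all genes. This was -0.14, with 0 higher and 5 lower, when biosimilar replicate 6 was left out, against 5.02% and 5.57% of all genes. Involucrin, encoded by IVL, is a scaffold of the cornified envelope and was the most abundant member. It was at 144.3 to 162.7 CPM with the biosimilar (median 156.6) and 162.0 to 171.9 CPM with Herceptin (median 168.0), against a control median of 94.4 CPM. Only biosimilar replicate 6 reached the Herceptin range. The log2 difference was -0.098 (SE 0.028, edgeR adjusted p = 0.471), bounded at 1.11-fold. KRT17, a keratin of basal and appendage epithelium, was at 15.4 to 19.9 CPM with the biosimilar and 16.9 to 21.3 CPM with Herceptin (log2 difference -0.16, SE 0.058). Of 16 tested genes 13 were bounded, and LCE3D, CDSN and PRR9 were not.

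Basal and myoepithelial markers, which share KRT17 with that list, had a median of -0.096. At an unadjusted p under 0.05, 0 of 15 were higher and 3 lower, against 2.5% and 3.23% of all genes. Without biosimilar replicate 6 the median was -0.087, with 0 higher and 2 lower, against 5.02% and 5.57% of all genes. ACTA2, the smooth muscle actin gene, was at 6.06 to 8.99 CPM with the biosimilar and 7.30 to 11.3 CPM with Herceptin (log2 difference -0.22, SE 0.098). CD44, an adhesion receptor gene, differed by -0.11 (SE 0.053) and the integrin gene ITGB4 by -0.0093 (SE 0.040). Estimates in the list ran from -0.38 (KRT5) to 0.11 (CAV2). Of its 15 tested genes 13 were bounded within 1.5-fold, and KRT5 and MME were not. Luminal markers had a median of -0.012, with 22 of 24 bounded.

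Mitochondrially encoded mRNAs had the highest median, 0.059, and all 13 were bounded. At an unadjusted p under 0.05, 2 of 13 were higher and 0 lower, against 2.5% and 3.23% of all genes. Without biosimilar replicate 6 the median was 0.079, again with 2 higher and 0 lower, against 5.02% and 5.57% of all genes. COX1, a core subunit of cytochrome c oxidase, was at 9149 to 10558 CPM with the biosimilar (median 9792) and 8168 to 9972 CPM with Herceptin (median 8961). It shares reads with nuclear copies, and its log2 difference was 0.13 (SE 0.039, edgeR adjusted p = 0.514). With no filter on low counts COX1 was called (adjusted p = 0.00336). ND4, of complex I, was at 5322 to 6005 CPM with the biosimilar and 4825 to 5818 CPM with Herceptin, a log2 difference of 0.090 (SE 0.035). Mitochondrially encoded genes together held 4.28% ± 0.169 of counts with the biosimilar and 4.09% ± 0.264 with Herceptin (SD, n = 8 each; exact two-sided permutation p = 0.11, adjusted over 6 library measures 0.219).

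Nuclear genes of oxidative phosphorylation gave a median of -0.0055, with 1 of 37 higher and 7 lower at an unadjusted p under 0.05, against 2.5% and 3.23% of all genes, and all 37 were bounded. The median was -0.028, with 1 higher and 9 lower, without biosimilar replicate 6, against 5.02% and 5.57% of all genes. COX5B, a nuclear subunit of cytochrome c oxidase, was at 117.7 to 150.6 CPM with the biosimilar (median 132.2) and 137.3 to 161.5 CPM with Herceptin (median 143.3), a log2 difference of -0.13 (SE 0.044). All 33 lysosome and autophagy genes, all 33 of cholesterol and fatty acid synthesis, all 35 of ribosome biogenesis and all 18 of glycolysis were bounded, with medians between -0.0075 and 0.0064. In glycolysis SLC16A3, a lactate exporter, was at a median of 170.2 CPM with the biosimilar and 179.9 CPM with Herceptin (log2 difference -0.11, SE 0.034, edgeR adjusted p = 0.584).

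Stress and immune response genes were mostly bounded. All 19 unfolded protein response genes, all 16 cytosolic chaperones and all 23 hypoxia genes were bounded, with medians of 0.0031, -0.018 and -0.035. NUPR1, a stress-induced gene in the ATF4 list, was at 53.4 to 70.0 CPM with the biosimilar and 59.6 to 73.7 CPM with Herceptin (log2 difference -0.15, SE 0.049). XBP1, a transcription factor of the unfolded protein response, differed by 0.076 (SE 0.027). Of 28 interferon-stimulated genes 25 were bounded, with a median of -0.0011, and -0.050 without biosimilar replicate 6. IFITM1, an antiviral membrane protein gene, had the largest estimate, 0.65 (SE 0.20), at 1.25 to 2.91 CPM with the biosimilar and 0.820 to 2.11 CPM with Herceptin, and is uncertain for shared reads. The BCL2 family had 12 of 14 bounded, and the p53 targets 21 of 23.

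The sign of the small differences varied with the length of the gene. Among genes of at least 10 CPM outside the mitochondrial genome, 62 of 65 genes of up to 500 bases were lower with the biosimilar (95.4%), with a median log2 difference of -0.094. From 500 to 1000 bases 525 of 655 were lower (80.2%, median -0.043), from 1000 to 2000 bases 59.9% (median -0.012), from 2000 to 4000 bases 43.1% (median 0.0069), and over 4000 bases 30.7% (median 0.020). Without biosimilar replicate 6 the medians were wider apart, -0.12 for the shortest and 0.040 for the longest genes. They were closer together without biosimilar replicate 2 (-0.069 and 0.011) or biosimilar replicate 4 (-0.073 and 0.0077). With an offset per library that follows gene length, a setting added after this pattern was seen, the medians were -0.0094 and 0.0013. The offset was fitted to these same counts, so it takes such a pattern out by design and tests no cause. ATP5ME, RPS26 and COX5B, above, are short genes of this kind. Genes of up to 1000 bases took 10.7% to 12.7% of counts in biosimilar libraries and 11.7% to 12.5% in Herceptin libraries. Biosimilar replicates 2 and 4 were lowest, at 10.7% and 10.8%, and biosimilar replicate 6 was highest. The lengths are those of the deposited table, and whether RNA integrity or library preparation had a part in this pattern was not tested.

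**Figure D5:**
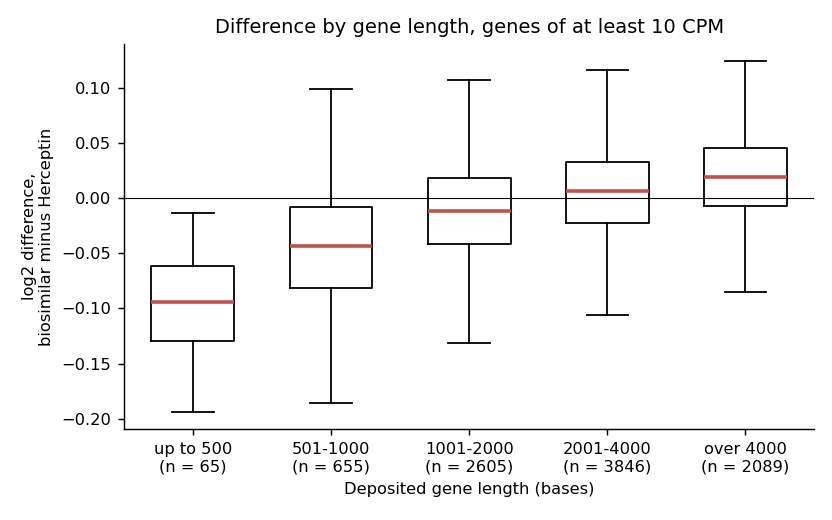
Log2 difference, biosimilar minus Herceptin, for genes of at least 10 CPM outside the mitochondrial genome, by deposited gene length in bases; boxes give quartiles, red lines medians and whiskers reach 1.5 times the box height. The median goes from -0.094 in the shortest class to 0.020 in the longest.

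Biosimilar replicate 6 deviated from its group in the opposite sense. Its median log2 deviation from the other biosimilar libraries was 0.18 for genes of up to 500 bases and -0.15 for genes over 4000 bases. Of its 867 genes that lay more than 1.2-fold from its group, 281 were higher and 586 lower, and 462 of the lower ones were longer than 4000 bases. MUC16, a very long mucin gene, was at 57.9 CPM there and at 111.7 to 173.5 CPM in the other biosimilar libraries. MKI67, which encodes the proliferation marker Ki-67, was at 210.1 CPM against 340.4 to 402.1 CPM, and the cadherin gene FAT1 at 209.4 CPM against 310.9 to 382.8 CPM. Higher there were IFI6, an interferon-stimulated gene, at 23.7 CPM against 9.50 to 12.9 CPM, and the nuclear RNA MALAT1 at 3896 CPM against 1809 to 2907 CPM. The first principal component of the 16 libraries, with 19.7% of the variance, placed this library at one end (10.4) and biosimilar replicates 2 and 4 at the other (-7.99 and -7.80), with all Herceptin libraries between -1.05 and 4.62. The typical deviation of a gene from its own group was 0.0685 ± 0.0140 with the biosimilar and 0.0555 ± 0.00535 with Herceptin on the log2 scale (SD, n = 8 each; exact two-sided permutation p = 0.0185, adjusted over 6 library measures 0.0555).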

How the data were processed

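RNA of SKBR3 cells was measured as polyA RNA-seq in 24 libraries, 8 per group. The values deposited for each gene were expected counts, made by the authors with STAR and RSEM on GRCh38.p12, per the submitters' processing notes. No source used here gives the annotation, trimming, strand setting or RSEM settings. Of the expected counts in the 16 antibody libraries, 9.38% were not whole. They were rounded, which moved a total by at most 4.56e-04%.

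Biosimilar and Herceptin libraries were fitted alone in edgeR 4.0.16 (R 4.3.3) with filterByExpr, TMM factors (0.991 to 1.01) and robust quasi-likelihood F tests, two-sided, with Benjamini-Hochberg adjustment over 13338 genes. Bounds came from the same fit by a pair of one-sided tests. CPM used TMM factors over all 24 libraries. Genes responsive to both antibodies came from a fit of 24 libraries. Of the tested genes, 12278 carried a symbol in the table, 457 were named by ID and 603 had no name. Positions and the 5.8S sequence are from GENCODE v29. The fit was tested on simulated data. Alternatives were DESeq2 1.42.0, limma-voom (limma 3.58.1), 1 surrogate variable (sva 3.50.0), other scalings and filters, thinning, other margins, a replicate block and leaving out each library. An offset by gene length and keeping identical rows once were added after seeing the data.

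The text names the 8 genes with the smallest p in each direction among those of at least 1 CPM with a symbol, the 10 widest bounds at 10 CPM or more, the 10 largest rises and falls with both antibodies, ERBB2, EGFR, ERBB3 and FCGRT, and up to 2 genes of smallest p per list. Some genes that this rule takes are not reported here. Other genes were chosen after their values were seen. The comparison and the lists were chosen with earlier results of these data known.

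Counts of the 28 pairs of libraries within a group differed by more than sampling noise (chi-square per degree of freedom 1.50 to 7.30 with the biosimilar, 1.70 to 3.83 with Herceptin), so each was 1 replicate. The labels do not say how the replicates were batched, or that each came from its own culture, so p-values reflect the spread among libraries alone, and that spread may be technical.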

Additional observations from a re-analysis of the deposited data

Results flagged for a closer look

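For the named genes and the 6 library measures, 224 groups of 8 libraries were examined. Of these, 27 held a library far from the other 7 by Dixon's test, where chance alone gives about 1 in 20. Some of the genes were named for their wide bounds, so that rate is only a rough reference. ERBB3 was at 191.0 CPM in biosimilar replicate 6 and OSGIN1 at 7.93 CPM in the same library. Biosimilar replicate 5 was high for RN7SL1 (52.1 CPM) and RN7SL2 (91.8 CPM), and Herceptin replicate 5 was high for RN7SL2 as well (71.9 CPM). Biosimilar replicate 3 was low for FAM220A (7.95 CPM) and high for GPRIN3 (1.79 CPM) and CENPE (135.6 CPM). Biosimilar replicate 8 was high for INSYN1 (6.33 CPM) and EGLN3 (10.9 CPM).

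The other flags were in Herceptin libraries. Replicate 1 was high for ISG20 (22.7 CPM) and DDR2 (2.33 CPM), and replicate 2 for KREMEN2 (2.86 CPM) and the 5.8S ribosomal RNA row RNA5-8SN3 (7.33 CPM). Replicate 3 was high for HSP90AA1 (2904 CPM) and COX5B (161.5 CPM), and replicate 5 for XBP1 (410.1 CPM) and SLC16A3 (196.7 CPM). Replicate 6 was high for BIRC3 (9.17 CPM) and IFITM1 (2.11 CPM) and low for KRT17 (16.9 CPM) and KANK4 (0.550 CPM). Replicate 7 was high for EGLN3 (12.3 CPM) and low for ZMAT3 (39.1 CPM). Replicate 8 was high for PRR9 (4.73 CPM) and CSF1R (46.2 CPM) and low for SPINK5 (3.91 CPM).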

How the results depend on the processing

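The count of genes called different was 0 in edgeR and also 0 with DESeq2 size factors, no scaling factor, a mean of at least 5 CPM, all 24 libraries in the fit, 1 surrogate variable, thinning to the smallest total, the gene length offset or identical rows kept once. It was 14 with DESeq2, 9 with limma-voom and 56 of 31990 rows with no filter on low counts. Leaving out each library in turn gave 0 to 21 calls, with 21 without biosimilar replicate 6, 11 without biosimilar replicate 5 and 8 without Herceptin replicate 2. The cause of these moves was not tested.

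With the replicate number as a block there were 13 calls: the 8 rows of 5.8S RNA, RN7SK, RPS26, PFDN5, the more abundant CHTF8 row and, in the lists, COX1 (adjusted p = 0.0148). The labels give the numbers no meaning and not every pair correlated, so the numbers were not taken to pair the samples: deviations of same-numbered libraries correlated between -0.163 and 0.195, 6 of 8 pairs were over 0.1 and 4 of 8 libraries matched their own number best.

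The count bounded within 1.5-fold ran from 12422 to 12797 over the other tools, scalings and fits, was 10536 of the genes of at least 5 CPM, and was 12679 to 12712 with 1 library left out. Of responsive genes 449 of 523 were bounded, and 437 to 448 with 1 library left out. This was 218 of 228 at a mean of at least 5 CPM, where fewer genes were tested. When responsive meant 2-fold it was 82 of 104, counted in the main fit. It was 189 with the stricter 1.2-fold margin.

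With 1 library left out, the difference in total count ran from -1448030 to -1046600 and that in typical deviation from 0.00911 to 0.0154 on the log2 scale. The total passed (adjusted p under 0.05) without biosimilar replicate 1, 5, 6 or 7, and the deviation without biosimilar replicate 1, 5 or 7. Depth limits the bounds under 3 CPM.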

Other observations

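Among genes outside the comparisons above, SHARPIN, which encodes a subunit of the linear ubiquitin ligase complex, was the second gene with whole counts whose biosimilar libraries all lay below all Herceptin libraries. Its log2 difference was -0.14 (SE 0.042, edgeR adjusted p = 0.514), bounded at 1.16-fold. The second gene whose biosimilar libraries all lay above was ENSG00000285976, a protein-coding row on chromosome 6 without a symbol, at 0.14 (SE 0.034, adjusted p = 0.224). It is uncertain, with fractional counts in 93.8% of libraries.

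A set of identical lincRNA rows of chromosome 21, among them ENSG00000280614, averaged 196.8 CPM and had a log2 difference of -0.75, the lowest of any row of at least 10 CPM. They were not bounded within 1.5-fold (2.18-fold), and their counts were not whole in 75% of libraries. HIST1H4C, a replication-dependent histone gene, averaged 2.58 CPM and differed by -0.87 (SE 0.33).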
